A study of Mus musculus with 2 samples.

Results

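The nuclear-encoded genes of the respiratory chain were described in immune cells of the recovering mouse colon. They were taken as every gene whose symbol begins with Ndufa, Ndufb, Ndufc, Ndufs, Ndufv, Uqcr, Cox4, Cox5, Cox6, Cox7, Cox8 or Atp5, or is Sdha, Sdhb, Sdhc, Sdhd or Cycs. Of 95 such genes among 32285 in the count tables, 91 had at least 50 UMIs (unique molecular identifiers, each a counted RNA molecule) over the cells analysed. Single cells had been profiled by droplet RNA sequencing of transcript 5′ ends (10x Genomics, v1.1) after live CD45+ lamina propria cells were sorted from the colon. There was 1 library labelled E4BP4 transgenic (TG) and 1 wild type library (WT), both from C57BL/6 mice aged 8 weeks. Both groups drank 2.0% dextran sulphate sodium (DSS), which injures the colon epithelium, for 7 days and then plain water for 7 days, and were killed on day 14. The series describes the transgene as overexpression of E4BP4 restricted to macrophages, the promoter that drives it is not given in the sources used here, and neither is the number of mice in a library. With 1 library per genotype no difference could be tested, so each ratio of TG over WT compares those 2 libraries and carries an exact 95% interval that covers counting error only.

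The respiratory chain moves electrons from NADH (complex I) and succinate (complex II) through complex III and cytochrome c to oxygen at complex IV. Protons pumped on the way drive the ATP synthase, complex V. Most subunits are encoded in the nucleus and imported, while a small set of core subunits of complexes I, III, IV and V is encoded by mitochondrial DNA (the mt- genes), so assembly needs products of both genomes. Macrophages and neutrophils are textbook contrasts, since neutrophils rely mainly on glycolysis and hold few mitochondria, and macrophages alter their use of the chain with activation.

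The libraries held 10143 barcodes with 58884332 UMIs (TG) and 9855 barcodes with 69346746 UMIs (WT). The deposited cell table covers 7026 TG and 6466 WT cells, with medians of 2427.5 and 2700.0 UMIs per cell. These cells have under 2200 detected genes and under 5% mitochondrial UMIs, which caps the mt- levels that can be seen in them. The libraries share 67 cell barcodes, 0.954% of TG and 1.036% of WT cells. The 10 deposited clusters were named from cell type markers. The marker rule gave each a name, but for 4 it was not used and they are called unnamed here. It was ILC2 for lymphoid cluster 2 and NK and ILC1 for lymphoid cluster 4. For low-UMI cluster 5 it was mast cell, and for low-UMI cluster 7 epithelial. E4BP4 is encoded by Nfil3, which checks the label. Nfil3 stood at 73.8 CPM (UMIs of the gene over all UMIs of those cells, times 1000000) in TG and 84.4 CPM in WT macrophage-like cells (ratio 0.874, interval 0.724 to 1.06), and at 235 and 272 CPM in monocyte-like cells (ratio 0.864, interval 0.778 to 0.959). In neutrophil-like cells it stood at 363 and 258 CPM (ratio 1.41, interval 1.15 to 1.71), and over all cells at 73.3 and 121 CPM. The counted transcript was therefore not higher in macrophage-like cells of the library labelled transgenic. The form of the transgene is not given in the sources used here. A transcript without the mouse Nfil3 5′ end may escape counting by this assay, which was not checked, so the label could not be settled. Every direction given here is a direction between the library labelled transgenic and the wild type library.

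Among the 95 genes, complex I gave 36 subunit genes, all of them retained, and 8 assembly factors (Ndufaf), also all retained. Complex II gave 4 of 4, complex III 8 of 8, cytochrome c 1 of 1, complex IV 16 of 20 and complex V 17 of 17. The remaining locus, Ndufb1-ps, is annotated as a bidirectional promoter lncRNA, and the other 90 retained genes as protein coding. Ndufa4 was placed with complex IV, where its protein sits. The 4 genes not retained were Cox7b2 and Cox8c with 0 UMIs, Cox8b with 3 TG and 0 WT UMIs, and Ndufa4l2, the hypoxia-inducible relative of Ndufa4, with 6 TG and 26 WT UMIs. Cox4i2, with 20 TG and 41 WT UMIs, lay just inside the limit. Of the 26 WT UMIs of Ndufa4l2, 18 were in 5 fibroblast-like cells. The complex V inhibitor is listed as Atpif1, a symbol outside the rule.

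Promoter sequences are shown for 4 genes on which later values turn, as the 250 bases before the RefSeq transcription start in GRCm38.p6. Cox6a1 is the ubiquitous counterpart of the restricted Cox6a2, Cycs is the mobile electron carrier, Ndufa6 was higher in TG in every cluster and Ndufs8 was lower in TG macrophage-like cells. All 4 lie on the minus strand, and the sequences read 5′ to 3′ along the gene. Cox6a1 is at chr5:115348959-115349208, Cycs at chr6:50566570-50566819, Ndufa6 at chr15:82354292-82354541 and Ndufs8 at chr19:3912775-3913024. Capitals mark matches to the NRF1 core GCATGCGC, the ETS core CCGGAAG or the YY1 core AAGATGG on either strand. These factors are known regulators of nuclear respiratory genes.
Cox6a1: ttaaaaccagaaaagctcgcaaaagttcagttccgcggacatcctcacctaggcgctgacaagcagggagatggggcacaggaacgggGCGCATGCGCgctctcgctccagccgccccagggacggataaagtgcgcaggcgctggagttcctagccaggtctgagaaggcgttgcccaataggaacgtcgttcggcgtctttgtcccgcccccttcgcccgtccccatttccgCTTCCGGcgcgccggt
Cycs: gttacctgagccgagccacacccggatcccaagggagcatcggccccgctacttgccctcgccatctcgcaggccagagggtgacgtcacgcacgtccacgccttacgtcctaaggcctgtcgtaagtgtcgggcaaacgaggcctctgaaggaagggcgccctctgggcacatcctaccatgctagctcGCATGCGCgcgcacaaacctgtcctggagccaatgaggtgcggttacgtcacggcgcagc
Ndufa6: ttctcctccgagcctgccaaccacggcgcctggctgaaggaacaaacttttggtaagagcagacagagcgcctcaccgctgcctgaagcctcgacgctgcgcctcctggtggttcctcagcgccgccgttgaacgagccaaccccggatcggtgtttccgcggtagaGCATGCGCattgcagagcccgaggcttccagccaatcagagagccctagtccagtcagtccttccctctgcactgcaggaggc
Ndufs8: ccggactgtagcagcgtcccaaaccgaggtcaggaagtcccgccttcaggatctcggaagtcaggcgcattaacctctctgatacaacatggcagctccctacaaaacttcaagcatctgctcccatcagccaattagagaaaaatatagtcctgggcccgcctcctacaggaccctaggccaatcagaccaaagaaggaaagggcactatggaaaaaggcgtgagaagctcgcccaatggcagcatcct
The capitals in Cox6a1 are an NRF1 core on both strands, overlapping, and an ETS core on the reverse strand. Those in Cycs and Ndufa6 are NRF1 cores, and the Ndufs8 stretch has 0 matches, although its window of 300 bases, which adds the 50 after the start, holds an ETS core.

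Of the 91 genes, 74 had a promoter in the RefSeq table, searched over 300 bases (250 before and 50 after the start). The NRF1 core was in 13 of these (17.6%), against 2.71% of all 32851 promoters of the table and 5.03% of the 12312 whose gene had at least 50 UMIs here. The ETS core was in 18 (24.3%), against 8.86% of all promoters and 17.6% of those of detected genes. The YY1 core was in 10 (13.5%), against 6.34% and 7.11%. Any of the 3 was in 35 (47.3%), against 16.6% and 26.8%. By complex, a match of any kind was in 14 of 32 complex I, 3 of 5 complex III, 4 of 12 complex IV and 7 of 14 complex V promoters. A match is a run of letters and does not show binding.

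In both libraries the summed level of the 91 genes was lowest in neutrophil-like cells. In TG the sum ranged from 14832 CPM (14420 to 15253) in neutrophil-like cells and 19456 CPM in B-like cells up to 26302 CPM in monocyte-like cells and 27217 CPM (27020 to 27416) in lymphoid cluster 4. In WT it ranged from 8987 CPM in neutrophil-like cells and 17698 CPM in low-UMI cluster 7 up to 27462 CPM in lymphoid cluster 4 and 27534 CPM in dendritic-like cells, the last pair having overlapping intervals. Macrophage-like cells held 24659 CPM in TG and 26041 CPM in WT, 1.66 and 2.9 times the neutrophil-like level of the same library. Lymphoid cluster 4 mixes NK cell, T cell and gamma-delta T cell markers and stayed unnamed. Among finer deposited clusters the highest sum was in a small one led by the epithelial genes Fcgbp, Spink1 and Tff3, with 42938 CPM in 53 TG cells and 34306 CPM in 63 WT cells.

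**Figure D1:**
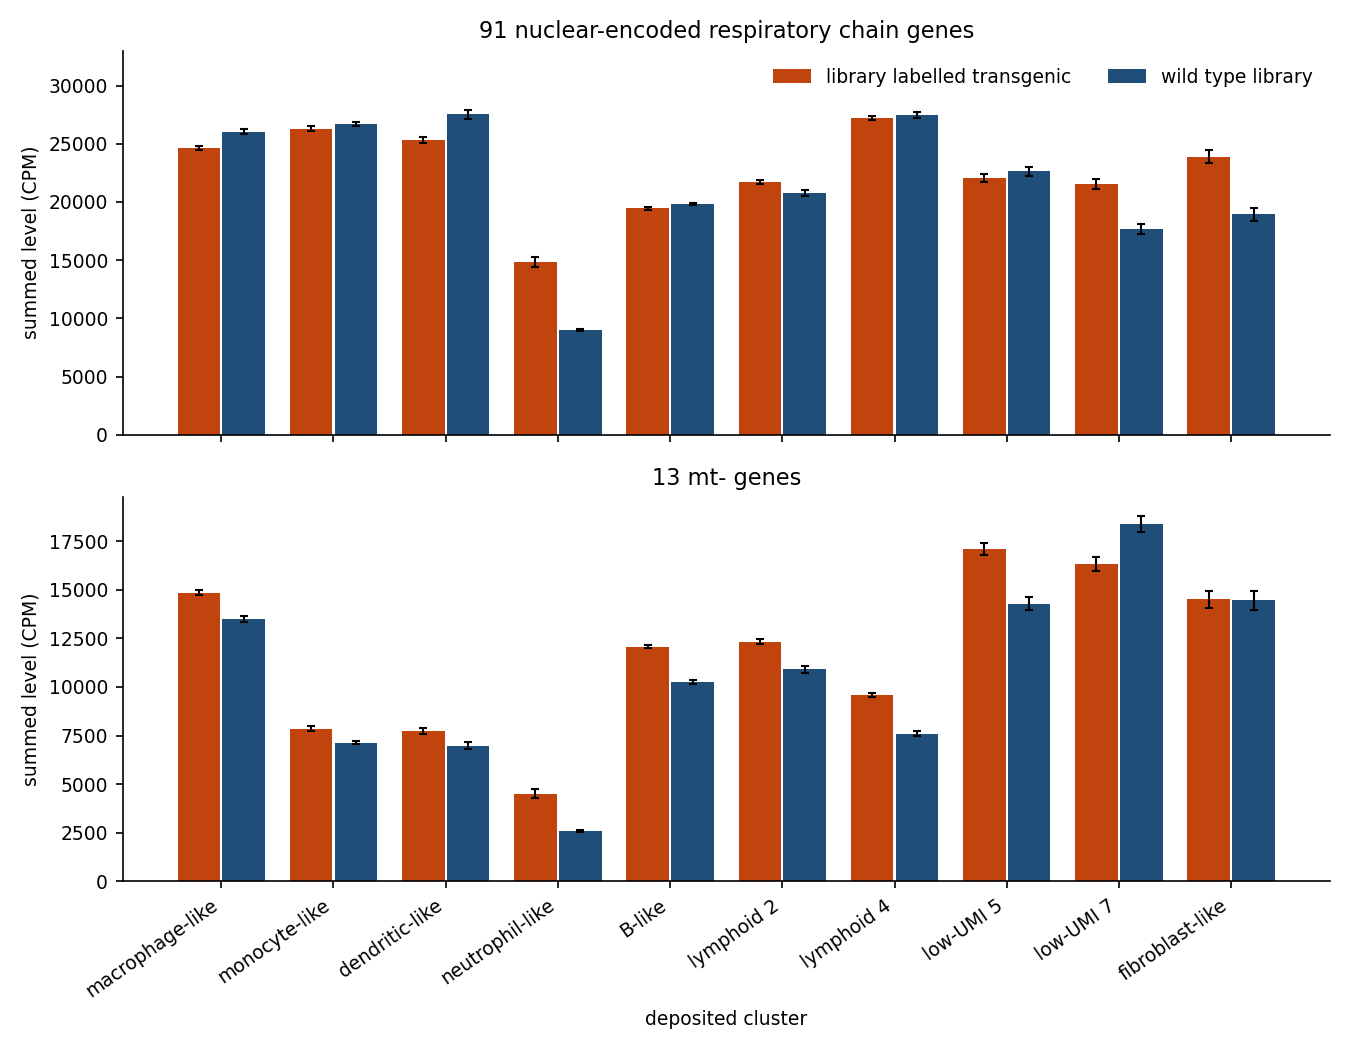
Summed nuclear respiratory chain genes and summed mt- genes, in CPM, for the TG and WT libraries in each of the 10 deposited clusters; bars start at 0 and error bars are exact 95% Poisson intervals. The nuclear sum is lowest in neutrophil-like cells of both libraries, at 14832 CPM (TG) and 8987 CPM (WT).

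The mt- genes did not follow the same order of clusters. Their sum was lowest in neutrophil-like cells, at 4509 CPM (TG) and 2600 CPM (WT), and highest in low-UMI cluster 5 of TG at 17084 CPM and low-UMI cluster 7 of WT at 18386 CPM. Per nuclear respiratory UMI there were 0.299 mt- UMIs in TG and 0.267 in WT monocyte-like cells, 0.305 and 0.254 in dendritic-like cells, and 0.602 and 0.519 in macrophage-like cells. In low-UMI cluster 5 the same ratio was 0.775 in TG and 0.631 in WT. Over the 20 combinations of cluster and library, the log2 levels of the nuclear sum and the mt- sum had a Pearson r of 0.46, and of -0.66 over the 18 without neutrophil-like cells. The nuclear sum and the mitochondrial ribosomal proteins had an r of 0.96, and of 0.84 without neutrophil-like cells. Points of a library share depth and the total they are divided by, so these values describe the clusters only.

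Of the 88 genes with at least 200 UMIs, 66 in TG and 79 in WT had their lowest level in neutrophil-like cells. The same share over all genes was not counted. Other sums were also lowest there in both libraries. Cytosolic ribosomal protein genes summed to 82898 CPM in TG and 37009 CPM in WT, mitochondrial ones to 3235 and 1678 CPM, and citric acid cycle genes to 651 and 433 CPM. Among the 88 genes the highest level was in lymphoid cluster 4 for 25 genes in TG and 25 in WT, and in monocyte-like cells for 13 and 13. The median gene varied 2.5-fold between its highest and lowest cluster, taking the smaller of the 2 libraries. Ndufc2, a small accessory subunit of complex I, was highest in macrophage-like cells, at 357 CPM in TG and 364 CPM in WT, against 51.4 and 32.8 CPM in neutrophil-like cells. Ndufa9, an accessory subunit near the quinone site, was highest in TG fibroblast-like cells at 58.6 CPM and in WT dendritic-like cells at 57.8 CPM. In neutrophil-like cells of both libraries it stood at 9.08 CPM. That was only 0.402% of its 746 TG UMIs and 3.03% of its 758 WT UMIs. Ndufv2, an iron-sulphur subunit of the NADH-oxidising arm, was highest in dendritic-like cells, at 150 CPM in TG and 182 CPM in WT, against 30.3 and 36.3 CPM in neutrophil-like cells. Ndufa5, another accessory subunit, was highest in fibroblast-like cells, at 193 CPM (TG) and 163 CPM (WT), against 36.3 and 13.4 CPM in neutrophil-like cells. An exception was Ndufaf7, a methyltransferase that acts during complex I assembly. It was highest in neutrophil-like cells, at 48.4 CPM in TG and 49.3 CPM in WT. These values came from 4.26% of its 376 TG UMIs and 27.5% of its 455 WT UMIs. Ndufaf7 was lowest in macrophage-like cells, at 10.6 and 12.4 CPM.

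The widest spread belonged to Cox6a2, the complex IV subunit VIa isoform known from heart and skeletal muscle. It lies at chr7:128205435-128206387 on the minus strand. It stood at 293 CPM in TG and 438 CPM in WT dendritic-like cells, and had a UMI in 17% of those TG cells and 14.4% of those WT cells. In B-like cells, which should lack it, it stood at 0.185 and 0.475 CPM, with a UMI in 0.0447% and 0.124% of cells. The dendritic-like level was at least 32.2-fold higher in TG and at least 185-fold higher in WT than the floor of 3 counts set by the lowest cluster of the library, in which Cox6a2 had 0 UMIs. Within the dendritic-like cells it lay in 1 finer cluster led by Cox6a2 and Siglech, a plasmacytoid dendritic cell marker. There it stood at 1730 CPM with a UMI in 45 of 48 TG cells, and at 2591 CPM with a UMI in 19 of 22 WT cells. The ubiquitous Cox6a1 was present in the same cells, at 360 CPM in TG and 513 CPM in WT.

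Other restricted isoforms were rare. Cox4i2, the isoform of subunit IV known from lung and from oxygen-sensing cells, stood at 17.2 CPM in TG and 103 CPM in WT fibroblast-like cells, from 5 UMIs in 3 cells and 26 UMIs in 4 cells. Endothelial and pericyte markers in the same cluster summed to 486 CPM in TG and 1573 CPM in WT, with 0 of 6 higher in TG. Their part in the Cox4i2 values was not tested. Cox7a1, the heart and muscle isoform of subunit VIIa, was highest in low-UMI cluster 7, at 42.9 CPM (TG) and 20 CPM (WT). Within it most UMIs lay in the finer cluster led by Fcgbp, with 127 CPM from 9 of 53 TG cells and 52.3 CPM from 4 of 63 WT cells. Cox6b2, known from testis, stood at 48.2 CPM in TG and 31.8 CPM in WT fibroblast-like cells, from 14 and 8 UMIs. Cox7a2 and Cox8a, the ubiquitous forms, were detected in every cluster of both libraries.

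**Figure D2:**
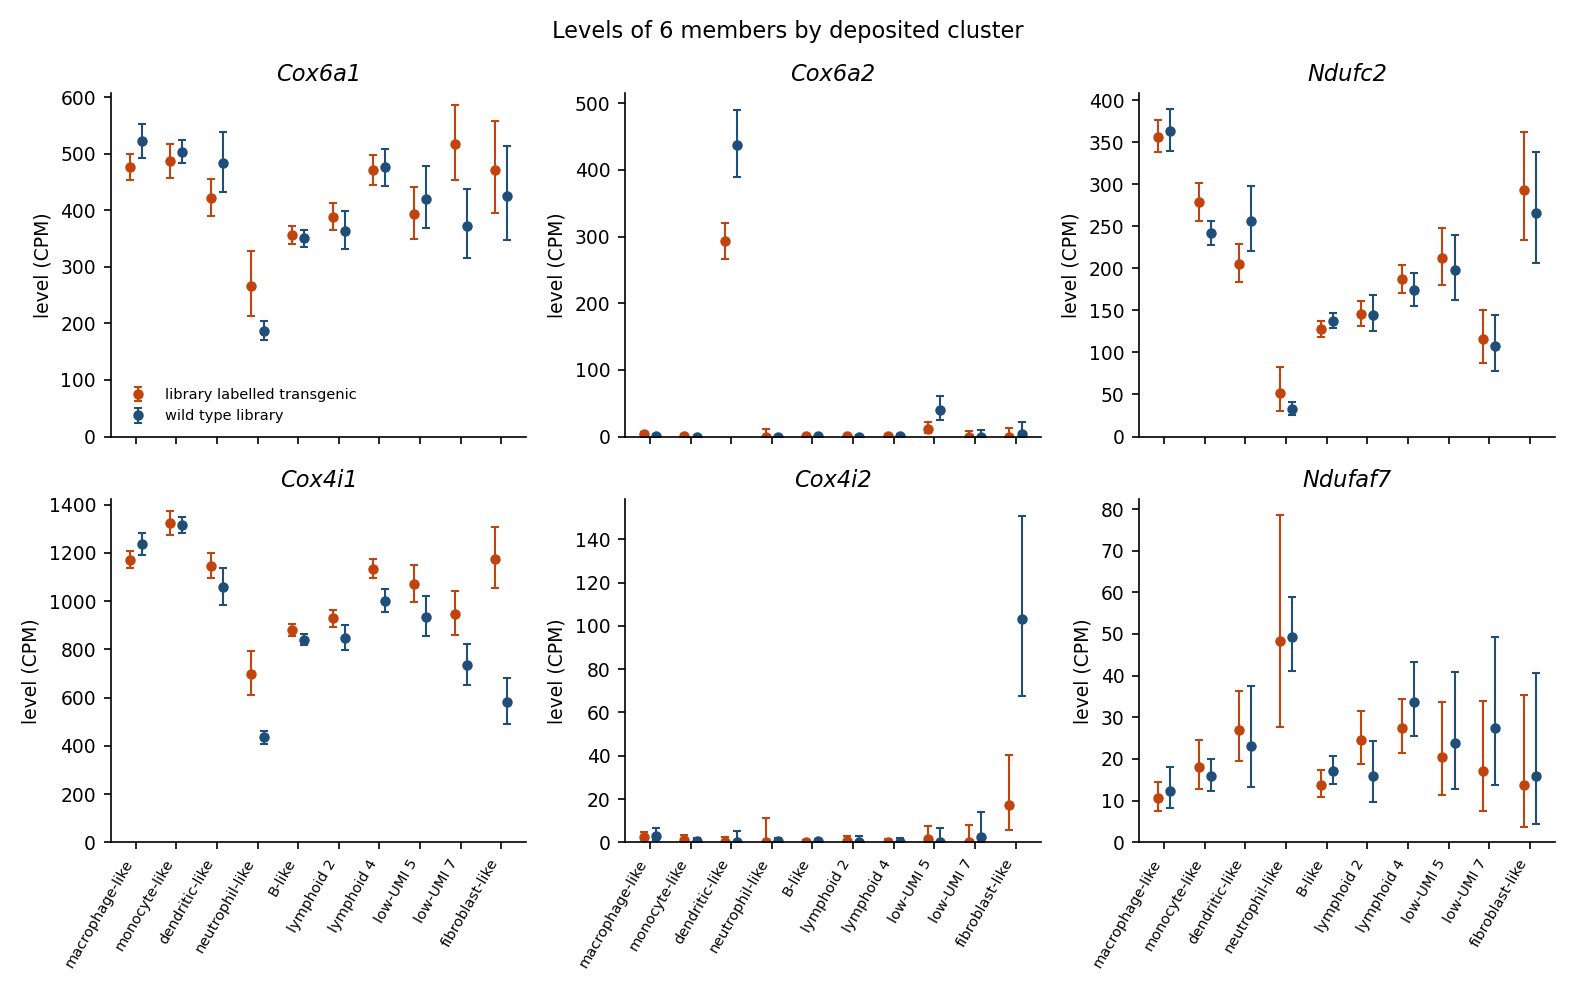
Levels in CPM of Cox6a1, Cox6a2, Cox4i1, Cox4i2, Ndufc2 and Ndufaf7 in each cluster of the TG and WT libraries, on linear axes from 0 with exact 95% Poisson intervals. Cox6a2 stands out in dendritic-like cells at 293 CPM (TG) and 438 CPM (WT) and Cox4i2 in fibroblast-like cells, while Cox6a1 and Cox4i1 are found in all clusters.

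Genes outside the rule whose pattern over the 20 combinations was most like the nuclear sum were ranked by Pearson r among 4644 genes with at least 1000 UMIs. Tmem160 came first, with an r of 0.964, and of 0.912 without neutrophil-like cells. It was followed by Hint1 (0.952), 2210016F16Rik (0.934), Psmb6 (0.930), a proteasome subunit, and Cenpx (0.923). Timm13 and Dnajc19, both parts of mitochondrial import, Ciao2b, of cytosolic iron-sulphur assembly, Bax, which permeabilises the outer mitochondrial membrane, and Ten1 had an r between 0.914 and 0.922. Without neutrophil-like cells the genes after Tmem160 fell further than it did, to an r between 0.674 (Dnajc19) and 0.829 (Psmb6).

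Over all cells together the sum was 23097 CPM in TG (2.31% of UMIs) and 21679 CPM in WT (2.17%) (ratio 1.07, interval 1.06 to 1.07). Of the 91 genes, 1 was at least 1.5-fold higher in TG and 1 at least 1.5-fold lower. Among all 12557 genes with at least 50 UMIs, 11.4% were that much higher and 6.55% that much lower. The shares of respiratory genes lay below these both ways, but the minimum of 50 UMIs admits genes far sparser than most of the 91. No background of like depth was made. The makeup of the libraries differed: macrophage-like cells were 15.7% of TG and 10.3% of WT cells, monocyte-like cells 6.22% and 12.6%, and neutrophil-like cells 2.38% and 10%. With clusters weighted equally the ratio was 1.05. The median gene had a ratio of 1.1 over all cells, and relative to it the nuclear sum stood at 0.964, the other side of 1. The gene past the fold upward was Cox6a2, with 24.8 CPM in TG and 16.2 CPM in WT (ratio 1.54, interval 1.33 to 1.77), although within dendritic-like cells it was at 0.668. Dendritic-like cells were 4.01% of TG and 2.04% of WT cells. The gene past it downward was Cox4i2, at 1 and 2 CPM.

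By complex over all cells, the ratio was 1.08 for complex I subunits, 1.18 for complex I assembly factors, 0.948 (0.918 to 0.979) for complex II, 1.09 for complex III, 1.06 for Cycs, 1.06 for complex IV and 1.06 for complex V. All 13 mt- genes had ratios above 1, between 1.15 and 1.37, and their sum stood at 11679 CPM in TG and 9001 CPM in WT (ratio 1.3, interval 1.29 to 1.31). The mt- ratio was above 1 over all cells under each of the 10 alternatives tried.

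Macrophage-like cells are the type named in the description of the transgene. There the nuclear sum was 24659 CPM in TG and 26041 CPM in WT (ratio 0.947, interval 0.937 to 0.957). The median gene tested in this cluster had a log2 ratio of -0.05 and the median respiratory gene -0.10. When scaled to the median ratio of genes the sum stood at 1, so its direction rests on the scaling. Of 86 respiratory genes with at least 50 UMIs, 21 had ratios above 1 and 65 below. Among all genes tested, 169 of 324 with under 1000 exonic bases and 3396 of 7813 longer ones had ratios above 1. None of the 86 was at least 1.5-fold higher, where 5.85% of all genes were. That much lower were 2 of the 86 (2.33%), where 6.19% of all genes were. Marker lists of 6 other cell types differed by at least 1.5-fold in this cluster. Those higher in TG were T cells, with 599 CPM in TG and 254 CPM in WT and 12 of 12 markers higher, gamma-delta T cells, with 51.3 and 17.3 CPM and 6 of 6 higher, and NK cells and ILC1, with 349 and 73.3 CPM and 9 of 9 higher. Those lower in TG were monocytes, with 958 CPM in TG and 2177 CPM in WT (ratio 0.44) and 1 of 10 markers higher, neutrophils, with 1965 and 3658 CPM and 1 of 10 higher, and mast cells, with 83.8 and 159 CPM and 3 of 8 higher. Of these lists only Ncr1 and Eomes were at 0, both in WT. The nuclear ratio was 0.937 without cells rich in neutrophil markers and 0.946 without cells holding a T, NK or ILC1 marker UMI, and the part of the monocyte and mast cell markers was not tested.

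In macrophage-like cells the complexes differed little from each other. Complex I subunits stood at 6605 CPM in TG and 6919 CPM in WT (ratio 0.955, interval 0.936 to 0.974). Complex III stood at 2642 and 2636 CPM (ratio 1, interval 0.97 to 1.04). Complex IV stood at 7014 and 7461 CPM (ratio 0.94, interval 0.922 to 0.959), and complex V at 7405 and 7959 CPM (ratio 0.93, interval 0.913 to 0.948). Scaled to the median ratio of genes, the same 4 ratios were 1.01, 1.06, 0.993 and 0.983.

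Complex II had the lowest ratio of the complexes in macrophage-like cells, at 375 CPM in TG and 431 CPM in WT, 0.87 (0.8 to 0.945), and lay between 0.827 and 0.919 under all 11 alternatives. Of its genes, Sdhb, the iron-sulphur subunit, stood at 131 CPM in TG and 176 CPM in WT (ratio 0.745, interval 0.651 to 0.852). Sdha, the flavoprotein that oxidises succinate, stood at 99.5 and 103 CPM. The membrane anchors Sdhc and Sdhd stood at 64.6 and 71.1 CPM and at 79.2 and 80.4 CPM, with intervals of the ratio that include 1. The lower sum thus lay mostly in Sdhb, which did not reach the 1.5-fold size. Cycs stood at 169 CPM in TG and 203 CPM in WT (ratio 0.833, interval 0.737 to 0.942).

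Ndufs8 was the clearest of the pair past the fold in macrophage-like cells. It encodes an iron-sulphur subunit of complex I on the path of electrons to quinone, and it lies at chr19:3908863-3912774. It had 268 UMIs in TG and 252 in WT macrophage-like cells, or 72.7 and 112 CPM (ratio 0.65, interval 0.545 to 0.774). Its ratio was 0.865 in B-like cells, 0.872 in monocyte-like cells, 0.737 in dendritic-like cells and 0.907 in fibroblast-like cells, and above 1 in neutrophil-like cells (1.3) and low-UMI cluster 7 (1.54). Without the macrophage-like cells that held a T, NK or ILC1 marker UMI (562 of 1106 TG and 183 of 664 WT cells) it was 0.718, no longer past the fold, and neither was it under median-of-ratios scaling, at 0.686. In barcodes outside the deposited cell table Ndufs8 stood at 98.9 CPM in TG and 120 CPM in WT, a ratio of 0.824, the lowest of the 91 genes there. The other gene past the fold was Cox6b2, with 27 and 26 UMIs and a ratio of 0.634 (0.356 to 1.13), whose interval includes 1.

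A few genes lay above 1 in macrophage-like cells with intervals clear of it. Cox7a2l, a factor of supercomplexes of complexes III and IV of which C57BL/6 mice carry a shortened form, stood at 297 CPM in TG and 247 CPM in WT (ratio 1.2, interval 1.09 to 1.34). Uqcrh, the hinge subunit of complex III, stood at 941 and 794 CPM (ratio 1.19, interval 1.12 to 1.26). Ndufa6, an accessory subunit of complex I that binds the acyl carrier protein, stood at 468 and 395 CPM (ratio 1.18, interval 1.09 to 1.28). Of the subunit c genes of complex V, whose mature proteins are identical, Atp5g1 stood at 275 and 328 CPM, Atp5g3 at 469 and 570 CPM (ratio 0.823, interval 0.765 to 0.885), and Atp5g2 at 593 and 582 CPM (ratio 1.02).

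The mt- genes of macrophage-like cells summed to 14856 CPM in TG and 13510 CPM in WT (ratio 1.1, interval 1.08 to 1.12), and 10 of 13 had ratios above 1. All 3 subunits of complex IV were above 1: mt-Co1 stood at 4262 and 3449 CPM (ratio 1.24), mt-Co2 at 2311 and 2123 CPM and mt-Co3 at 2266 and 2106 CPM. The nuclear genes of the same complex summed to a ratio of 0.94. mt-Cytb, of complex III, stood at 1583 and 1582 CPM. mt-Atp6 stood at 1833 and 1631 CPM and mt-Atp8 at 124 and 132 CPM. Of the complex I genes mt-Nd4l was lower, at 590 and 717 CPM (ratio 0.822). mt-Nd6, the only one encoded on the light strand, was at 21.4 and 12.4 CPM from 79 and 28 UMIs (ratio 1.72). The mt- UMIs per nuclear respiratory UMI were 0.602 in TG and 0.519 in WT.

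**Figure D3:**
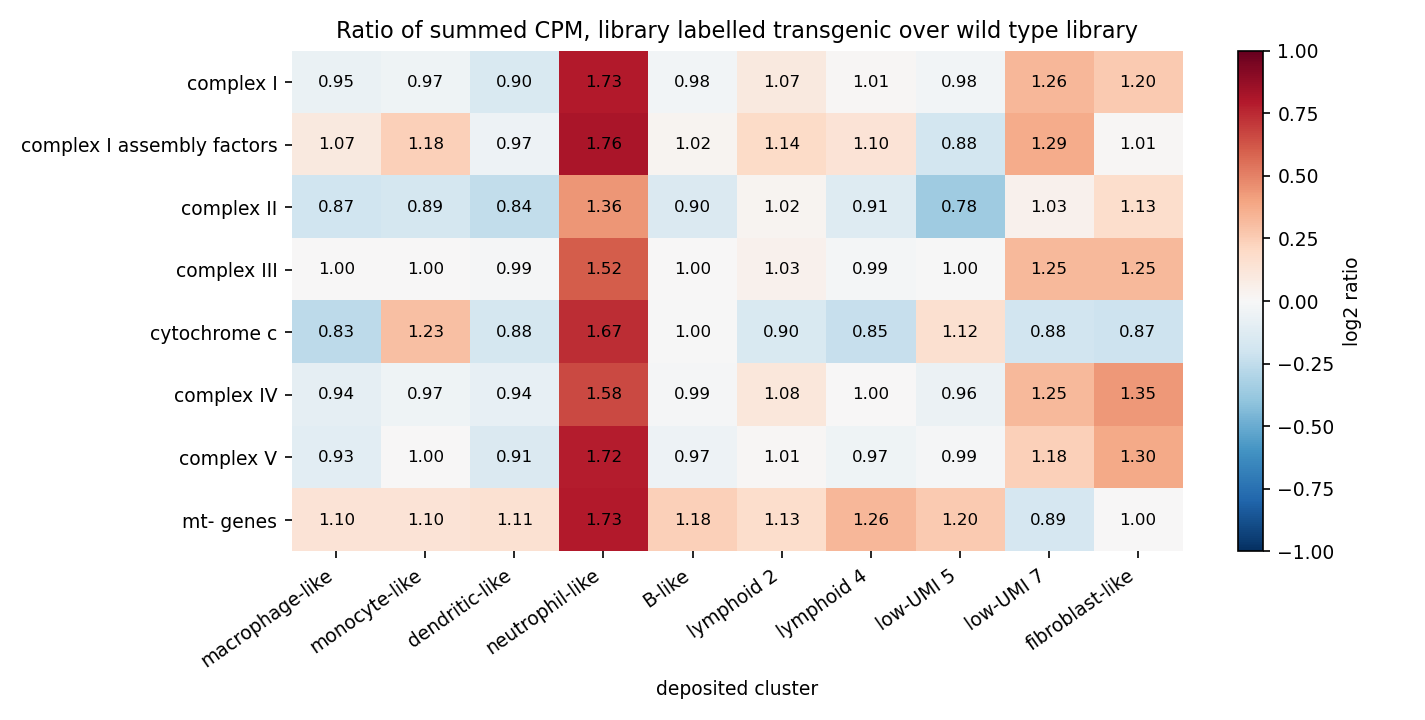
Ratio of TG over WT of the summed CPM of each complex and of the mt- genes in each cluster, printed in the cells; colour gives the log2 ratio. Neutrophil-like cells have ratios from 1.36 to 1.76 in every nuclear group on this CPM scale, where complex II stands at 0.9 relative to the median gene, and macrophage-like cells from 0.833 to 1.07.

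Lists of related genes were described beside the chain in macrophage-like cells, where 5.85% of all genes were past the fold upward and 6.19% downward. Citric acid cycle genes summed to 793 CPM in TG and 894 CPM in WT, with 1 of 17 above 1 and 1 past the fold downward, Suclg1, a subunit of succinyl-CoA synthetase, at 38.2 and 60.4 CPM. Mitochondrial ribosomal protein genes summed to 4557 and 4972 CPM, with 0 past the fold upward and 4 downward of 78, a share near that of all genes. Assembly factors outside the rule had 1 each way of 25: Sdhaf3, a complex II assembly factor, at 9.76 and 6.22 CPM, and Foxred1, a complex I assembly factor, at 11.4 and 21.3 CPM. Electron entry and carrier genes had 0 upward and 1 downward of 13, Gpd2, the mitochondrial glycerol phosphate dehydrogenase, at 12.7 and 20.4 CPM. Regulators had 1 each way of 11. These were Polg, the mitochondrial DNA polymerase, at 18.7 and 11.5 CPM, and Hif1a, the oxygen-sensitive transcription factor, at 131 and 221 CPM (ratio 0.592, interval 0.521 to 0.673). Medians of these lists lay between -0.25 and -0.03 on the log2 scale, beside -0.05 for all genes.

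Neutrophil-like cells had the highest ratio of any cluster. The nuclear sum was 14832 CPM in 167 TG cells and 8987 CPM in 648 WT cells (ratio 1.65, interval 1.6 to 1.7), and 73 of 76 genes had ratios above 1. Among all genes tested, 156 of 216 with under 1000 exonic bases and 2626 of 3505 longer ones had ratios above 1. Of the 76 genes 50 (65.8%) were at least 1.5-fold higher and 0 at least 1.5-fold lower. In this cluster 46.9% of all genes were that much higher and 10.6% that much lower, and the median gene had a ratio of 1.51 under median-of-ratios scaling. Relative to that median the nuclear sum stood at 1.09 and 11 genes were past the fold upward, where the share of all genes was not counted. Complex II then stood at 0.9, the other side of 1, complex III at 1, complex IV at 1.04, complexes I and V at 1.14 and Cycs at 1.1. By complex the counts past the fold were 23 of 32 for complex I subunits, 1 of 3 for complex II, 4 of 8 for complex III, 7 of 12 for complex IV and 12 of 17 for complex V. The mt- sum was 4509 CPM in TG and 2600 CPM in WT (ratio 1.73, interval 1.64 to 1.83).

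The neutrophil-like genes with the clearest differences came from 3 complexes. Ndufa6 had 93 UMIs in TG and 246 in WT, or 281 and 97.1 CPM (ratio 2.9, interval 2.26 to 3.69). Atp5e, the epsilon subunit of complex V, stood at 872 and 367 CPM (ratio 2.37, interval 2.07 to 2.71), and Atp5g2 at 215 and 86.1 CPM (ratio 2.5). Ndufa4 stood at 163 and 64.7 CPM (ratio 2.52), and Ndufb9, an accessory subunit of the membrane arm, at 315 and 147 CPM (ratio 2.14). Among the complex II genes Sdha stood at 60.5 and 22.1 CPM (ratio 2.74, interval 1.56 to 4.63), whereas Sdhb stood at 106 and 94.7 CPM and Sdhd at 87.8 and 75.4 CPM. Ribosomal protein genes were also higher: those of the cytosolic ribosome summed to 82898 CPM in TG and 37009 CPM in WT, with 75 of 78 past the fold upward, and those of the mitochondrial ribosome to 3235 and 1678 CPM, with 16 of 22.

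The neutrophil-like cells of the 2 libraries were unlike in other ways. Their median was 1749 UMIs in TG and 3527 in WT. The 10 neutrophil markers summed to 114986 and 272389 CPM, with 3 of 10 higher in TG. The 10 macrophage markers summed to 2530 and 953 CPM, with 9 of 10 higher in TG, T cell markers to 354 and 39.9 CPM, with 12 of 12 higher, and NK and ILC1 markers to 514 and 15.8 CPM, with 7 of 9 higher. Of the last list Prf1 and Eomes were at 0 in TG, and Klrb1c, Prf1, Eomes and Tbx21 in WT. Lists of unrelated types were higher in TG as well. Ratios were 4.26 for dendritic, 2.94 for plasmacytoid dendritic, 2.42 for plasma, 2.27 for epithelial and 2.14 for B cell markers. Monocyte markers were lower, at 0.633, and ILC2 markers stood at 0.929. Only the macrophage list was used to leave out cells, and the part of the other lists was not tested. Cells rich in the granule genes Ngp, Camp, Ltf and Lcn2 numbered 0 of 167 in TG and 199 of 648 in WT. Without them the nuclear ratio was 1.49 (1.44 to 1.54) and 32 genes were past the fold. The share of all genes past it was not counted in that setting. Without the 13 TG and 22 WT cells with macrophage markers the nuclear ratio was 1.67. With cells split by UMI number at 1000, 2000 and 4000 it was, from few to many UMIs, 1.63, 1.42, 1.51 and 2.09, the last from 10 TG and 276 WT cells. The mt- level varied more, with 7066 CPM in TG and 5675 CPM in WT in the lowest class and ratios of 0.575, 2.54 and 3.26 in the classes above it. These classes and exclusions were chosen after the data had been seen.

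**Figure D4:**
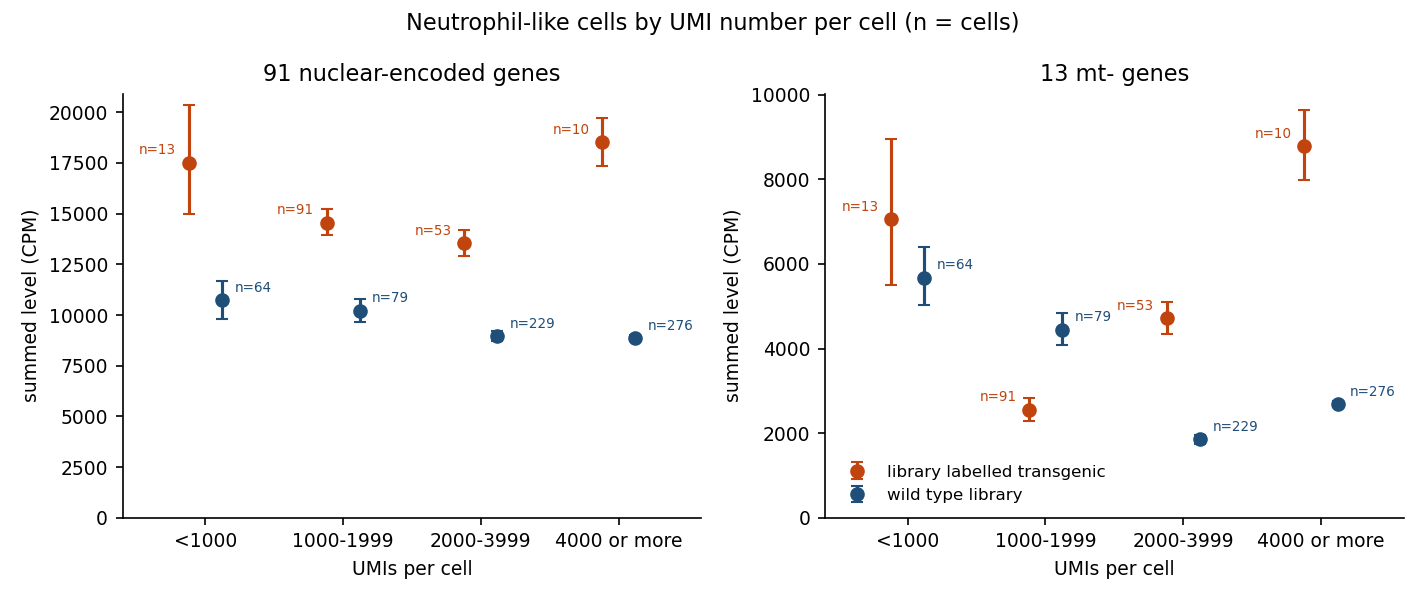
Nuclear respiratory chain and mt- levels, in CPM with exact 95% Poisson intervals, of neutrophil-like cells of the TG and WT libraries in 4 classes of UMIs per cell. The nuclear level is higher in TG in each class, while the mt- level is lower in TG in the class that starts at 1000 UMIs (2557 CPM in TG, 4449 CPM in WT).

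Fibroblast-like cells and low-UMI cluster 7 were the other clusters with several genes past the fold. Fibroblast-like cells (107 TG and 103 WT) held 23887 CPM in TG and 18933 CPM in WT (ratio 1.26, interval 1.22 to 1.31). Of 70 genes 13 (18.6%) were at least 1.5-fold higher and 0 lower, beside 13.4% and 14.8% of all genes. Cox4i1, the general isoform of subunit IV, had 341 UMIs in TG and 146 in WT, or 1175 and 580 CPM (ratio 2.03, interval 1.66 to 2.48). Cox7c, another complex IV subunit, stood at 1009 and 512 CPM (ratio 1.97, interval 1.6 to 2.44). Atp5j2 and Atp5h, both of complex V, had ratios of 1.79 and 1.75, and Cox7a2l 1.89. The mt- sum was 14500 and 14449 CPM (ratio 1, interval 0.96 to 1.05), and cytosolic ribosomal protein genes summed to 154949 and 98638 CPM. Neutrophil markers in this cluster summed to 62 CPM in TG and 1422 CPM in WT, with 0 of 10 higher in TG and 7 at 0 in TG, Csf3r among them. That list was lower in TG in every cluster, with ratios from 0.0436 here to 0.537 in macrophage-like cells. Among the others were B-like cells at 0.0767 and lymphoid cluster 4 at 0.145, so the shift is not particular to fibroblast-like cells. Endothelial and pericyte markers stood at 486 CPM (TG) and 1573 CPM (WT), epithelial markers at 348 and 667 CPM, with 1 of 7 higher in TG, and cycling markers at 48.2 and 238 CPM, with 0 of 5 higher. T cell markers stood at 179 and 87.4 CPM and NK and ILC1 markers at 107 and 27.8 CPM. The part of these lists in the ratios was not tested.

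Low-UMI cluster 7, led by haemoglobin genes and with medians of 888 (TG) and 848 (WT) UMIs, held 21546 CPM in TG and 17698 CPM in WT (ratio 1.22, interval 1.18 to 1.26). Of 78 genes 13 (16.7%) were past the fold upward and 1 (1.28%) downward, beside 7.63% and 12.6% of all genes. Atp5e stood at 804 and 465 CPM (ratio 1.73, interval 1.45 to 2.07). Uqcr10, a small complex III subunit, stood at 369 and 240 CPM, and Ndufa13, an accessory complex I subunit also known as GRIM-19, at 337 and 213 CPM. Neither kept its direction under every alternative: Uqcr10 stood at 0.923 with cells thinned to 1000 UMIs, and Ndufa13 at 0.888 without the tenth of cells with most UMIs. Sdhd was the gene past the fold downward, at 51.4 and 92.6 CPM (ratio 0.556, interval 0.318 to 0.954). The mt- sum went the other way, at 16335 CPM in TG and 18386 CPM in WT (ratio 0.888, interval 0.86 to 0.918), with 11 of 12 genes below 1. Over the whole finer cluster that held 664 of these 779 cells the nuclear ratio was 1.03. That finer cluster has 731 TG and 642 WT cells, so it also holds many cells of other clusters. In low-UMI cluster 7 itself the nuclear ratio was 0.971 without the tenth of cells with most UMIs and 1 as a mean over cells. It thus rests on the cells with most UMIs. Mast cell markers here summed to 1203 CPM in TG and 215 CPM in WT, and epithelial markers to 6277 and 6221 CPM. Neutrophil markers summed to 152 and 1596 CPM, with 0 of 10 higher in TG. T cell markers had a ratio of 1.89, with 11 of 12 higher, and NK and ILC1 markers 2.47, with 7 of 9. Dendritic cell markers had a ratio of 1.74, with 6 of 10 higher, and fibroblast markers 0.254, with 0 of 7. The part of all these lists was not tested.

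The remaining clusters had ratios of the nuclear sum between 0.921 and 1.05. B-like cells held 19456 CPM in TG and 19841 CPM in WT, with 0 genes past the fold either way of 87, beside 5.18% and 3.23% of all genes. In lymphoid cluster 2 the sums were 21729 and 20775 CPM, and 2 of 85 genes were past the fold upward and 0 downward, beside 7.49% and 4.25%. These were Ndufv1, the NADH-binding flavoprotein of complex I, at 68 and 43.4 CPM, and Ndufaf7 at 24.6 and 15.8 CPM (ratio 1.56, interval 0.93 to 2.72, which includes 1). The finer cluster with the largest part of these cells held 710 of 1554 (45.7%). There the ratios were 1.13 for Ndufv1 and 1.18 for Ndufaf7, neither past the fold. ILC2 markers of lymphoid cluster 2 had a ratio of 0.565, with 0 of 8 higher in TG, against 2.08 for NK and ILC1 markers, with 7 of 9 higher, and 0.202 for neutrophil markers, with 1 of 10 higher. Their part was not tested. Lymphoid cluster 4 held 27217 and 27462 CPM, with 0 of 86 past the fold, beside 5.62% upward and 5.08% downward. Dendritic-like cells held 25347 and 27534 CPM (ratio 0.921, interval 0.905 to 0.937), which stood at 1.01 relative to the median gene, with 0 of 83 past the fold, beside 6.66% and 8.27%.

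Monocyte-like cells held 26302 CPM in TG and 26707 CPM in WT. Of 85 genes 2 were past the fold upward and 0 downward, beside 11.2% and 7.87% of all genes. These were Ndufaf4, a complex I assembly factor, at 21.2 and 12 CPM (ratio 1.77, interval 1.17 to 2.67), and Cox6b2, at 12 and 7.11 CPM. As a mean over cells the Ndufaf4 ratio was 1.46, and in the finer cluster that held most of these cells that of Cox6b2 was 1.02, neither past the fold. Monocyte markers in these cells had a ratio of 0.68. Neutrophil markers summed to 2816 CPM in TG and 11552 CPM in WT, with 1 of 10 higher in TG, dendritic cell markers to 717 and 177 CPM, with 8 of 10 higher, and T cell markers to 81.8 and 18.9 CPM, with 12 of 12 higher. Their part was not tested. Low-UMI cluster 5, led by the mast cell proteases Mcpt1, Mcpt2 and Mcpt9, held 22055 CPM in TG and 22632 CPM in WT. Of 79 genes 2 were past the fold each way, beside 9.41% upward and 11.6% downward. Ndufa6 stood at 464 and 309 CPM and Uqcrc2, a core subunit of complex III, at 96.6 and 64.3 CPM. Sdhb stood at 91.1 and 156 CPM (ratio 0.583, interval 0.417 to 0.813), and Sdhd at 65.3 and 114 CPM (ratio 0.573, interval 0.385 to 0.849). As a mean over cells Sdhb was at 0.672, short of the fold. Neutrophil markers here summed to 943 CPM in TG and 7265 CPM in WT, with 1 of 10 higher in TG, and monocyte markers to 2199 and 5098 CPM, with 1 of 10 higher. Mast cell markers summed to 6298 and 3613 CPM, with 5 of 8 higher, and cycling markers to 354 and 151 CPM, with 5 of 5 higher. Their part was not tested.

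**Figure D5:**
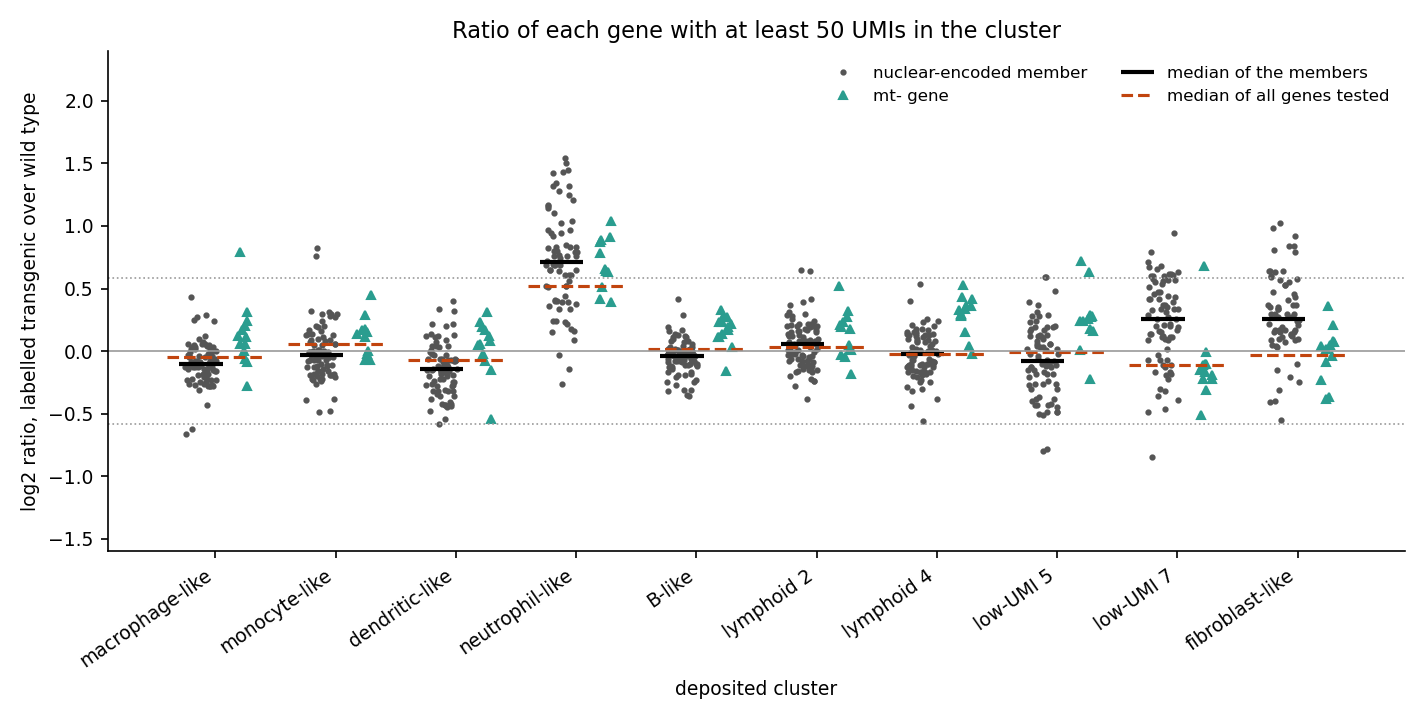
Log2 ratio of TG over WT of each nuclear respiratory chain gene (dots) and mt- gene (triangles) with at least 50 UMIs in the cluster; black bars are medians of the nuclear genes, dashed bars medians of all genes tested and dotted lines the 1.5-fold limits. Most dots lie between the dotted lines except in neutrophil-like cells, where 50 of 76 lie above the upper line.

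Some genes had 1 direction across clusters on the CPM scale. Ndufa6, Ndufa12 and Uqcrh had ratios above 1 in 10 of 10 clusters, and Cox4i1 in 9 of 10. The Ndufa6 ratio was smallest in B-like cells, at 340 and 313 CPM, and Ndufa12, another accessory complex I subunit, stood at 85.8 and 84.2 CPM there. Sdhb and the core complex III subunit Uqcrc1, the catalytic Atp5b, the rotor gamma subunit Atp5c1, Atp5g3, Ndufv2 and Ndufa1 were below 1 in 8 of 10. Ndufs1, the largest complex I subunit, was below 1 in all 6 clusters where it had 50 UMIs. These genes were picked from the 91 by their directions, and how many of all genes keep 1 direction as often was not counted. In neutrophil-like cells the median gene itself had a ratio of 1.51. The clusters come from the same pair of libraries, so these counts are not independent repeats. Among the mt- genes, mt-Co1, mt-Cytb and mt-Atp6 were above 1 in 9 of 10 clusters.

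The mt- sum was above 1 in 8 of 10 clusters by more than counting error, and fibroblast-like cells and low-UMI cluster 7 were the exceptions. In B-like cells it stood at 12080 CPM in TG and 10257 CPM in WT, a ratio of 1.18. In lymphoid cluster 2 it stood at 12329 and 10908 CPM and in lymphoid cluster 4 at 9577 and 7592 CPM (ratio 1.26). In monocyte-like cells it stood at 7863 and 7130 CPM, in dendritic-like cells at 7732 and 6987 CPM, and in low-UMI cluster 5 at 17084 and 14286 CPM. The deposited limit of 5% mitochondrial UMIs per cell applies to all of these values.

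Barcodes outside the deposited cell table, 3117 in TG and 3389 in WT, hold more UMIs than the cells described. They were put in classes that exclude each other, first by immunoglobulin, then by mitochondrial UMIs and last by gene number. Those with at least 5% immunoglobulin, whatever their gene number, had 14023 CPM of nuclear respiratory genes in TG and 14765 CPM in WT. Of the rest, those with at least 5% mitochondrial UMIs had 21015 and 22866 CPM. Those under both limits with at least 2200 genes had 32059 and 31947 CPM. With all barcodes together the nuclear sums were 21985 and 22109 CPM (ratio 0.994), and the mt- sums 12011 and 9154 CPM (ratio 1.31). The slight excess of nuclear respiratory UMIs in TG was thus seen in the deposited cells and not over all barcodes, while that of the mt- genes was seen in both.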

How the data were processed

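UMI counts per gene and barcode were used as deposited. Cell Ranger 5.0.0, Seurat 4.0 and the mm10 build are named, without roles, in the submitters' processing notes. How reads shared with processed pseudogenes were assigned is not given in the sources used here. The metadata deposited by the authors give the percent of mitochondrial and immunoglobulin UMIs per cell and clusters at resolutions 0.4 (used here) and 0.5, per the file headers. Where a symbol occurred more than once (38 symbols), the first identifier was used. The genes, lists, cluster markers and rules were chosen with earlier results of these data known.

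UMIs were summed per library and cluster (at least 100 cells each) and scaled by all UMIs of those cells (CPM). Levels have exact Poisson, shares exact Clopper-Pearson and ratios exact conditional binomial 95% intervals. The code was tested on simulated data. A gene counts as past the fold at 1.5-fold with at least 50 UMIs over both libraries in the cluster, and the percentages beside it are those of all genes meeting that minimum. Named genes were complex II, Cycs, isoform sets, the 13 mt- genes, up to 5 (macrophage-like 12) genes past the fold each way by interval bound, those with the widest cluster spread, and 10 of like pattern. No doublet caller was run. The tenth of cells with most UMIs was left out in an alternative. Other alternatives were median-of-ratios scaling, other totals, minimums and folds, per-cell means, thinning to 1000 UMIs, finer clusters and all barcodes. Tools were Python 3.11.15, numpy 2.4.6, pandas 2.3.3 and scipy 1.17.1.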

Additional observations from a re-analysis of the deposited data

Results flagged for a closer look

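The following results stood out by their size or source. The summed nuclear respiratory genes had a ratio of TG over WT of 1.65 in neutrophil-like cells and 0.947 in macrophage-like cells, a difference between clusters that was not tested because each genotype has 1 library. The mt- genes had a ratio of 0.888 in low-UMI cluster 7, where the other clusters lay between 1 and 1.73, and this difference was not tested either. Cox6a2 in barcodes outside the deposited cell table, which the comparisons above do not use, had 524 UMIs in TG and 276 in WT, a ratio of 2.38, the highest of the 91 genes there.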

How the results depend on the processing

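No paired analysis was possible because each genotype has 1 library, and for the same reason no replicate could be left out. Scaled by median-of-ratios, the nuclear sum had a ratio of 0.964 over all cells, 1 in macrophage-like and 1.09 in neutrophil-like cells, with 0 genes lower in macrophage-like cells and 11 higher in neutrophil-like cells. With totals without mt-, cytosolic ribosomal and immunoglobulin genes these were 1.13, 0.975 and 1.76, with 1 gene lower in macrophage-like cells. Without the 20 genes with most UMIs they were 1.04 over all cells and 1.23 in neutrophil-like cells, with 17 genes higher there. Over all cells the ratio was 1.05 as a per-cell mean, without the tenth of cells with most UMIs, thinned to 1000 UMIs or with clusters weighted equally, and 0.994 over all deposited barcodes. In macrophage-like cells it was 0.957 without the tenth of cells with most UMIs and 0.937 without cells rich in neutrophil markers. The 2 genes lower there became 1 at a minimum of 200 UMIs, without the tenth of cells with most UMIs, thinned, or without cells rich in neutrophil markers, and 0 at a 2-fold size or without cells holding T, NK or ILC1 marker UMIs. In neutrophil-like cells the ratio was 1.59 as a per-cell mean, 1.57 thinned, 1.49 without granule-rich cells, and 1.42, 1.51 and 2.09 in the 3 upper classes of UMI number. The 50 genes higher there became 28 at a minimum of 200 UMIs, 17 at a 2-fold size, 24 thinned and 32 without granule-rich cells. For none of the changed counts in this section was the share of all genes under the same setting counted. The macrophage-like over neutrophil-like level, 2.61 over both libraries, was 1.66 in TG alone, 2.9 in WT alone, 2.7 as a median over cells and 3.13 without mt-, ribosomal and immunoglobulin genes in the total. Directions reversed for Ndufa13 in low-UMI cluster 7 without the tenth of cells with most UMIs (0.888), Uqcr10 there after thinning (0.923), and the mt- sum of neutrophil-like cells in the class from 1000 to under 2000 UMIs (0.575). Sums that crossed 1 included the nuclear sum over all cells (above), complex II in neutrophil-like cells (0.9) and the nuclear sums of low-UMI cluster 5 (1.02), lymphoid cluster 4 (1.03) and dendritic-like cells (1.01) by median-of-ratios, that of monocyte-like cells with mt-, ribosomal and immunoglobulin genes out of the total (1.03), that of lymphoid cluster 2 in its main finer cluster (0.99), that of low-UMI cluster 7 without the tenth of cells with most UMIs (0.971), and complex I (1.01 by median-of-ratios) and its assembly factors (0.981 thinned) in macrophage-like cells. The cause was not tested. Of 370 alternative values for sums, 234 stayed within counting error and 135 moved. Of 376 for named genes, 286 kept their side of the fold and 88 fell short of it.

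Depth limits single genes: a count of 50 UMIs leaves an interval wider than the fold used, as for Cox6b2, and 67 cell barcodes occur in both libraries. Alternatives for neutrophil-like and macrophage-like cells by markers or UMI number were chosen after seeing the data.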
